A study of Mus musculus with 12 samples.

Results

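The MAP kinase phosphatases of mouse are encoded by 10 dual-specificity phosphatase genes, Dusp1, Dusp2, Dusp4, Dusp5, Dusp6, Dusp7, Dusp8, Dusp9, Dusp10 and Dusp16. They were taken as a whole gene family, which was chosen with earlier results of these data known, out of 21728 protein-coding genes outside chromosome Y. Every cJun and H3K4me3 peak within 50 kb of their gene bodies was examined, which gave 92 of 44996 peaks over 4 lists. Min6 cells, an insulinoma line from mouse that serves as a β cell model, were profiled by CUT&RUN, in which a nuclease tethered by an antibody releases the DNA around a bound protein or histone mark. The cells had received the JNK inhibitor SP600125 at 20 µM (JNKi) or the solvent DMSO, in each case for 48 hours. With antibodies against cJun, H3K4me3 or IgG this made 6 groups of 2 biological replicates, or 12 samples. IgG libraries served as the background for peak calling and were not analysed here.

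Each of the 4 lists combined the replicates of 1 group, so a count from a list has no replicate error and the treatment was not tested. For each peak the lists gave a −log10 p in each replicate, in columns without a replicate number that are called first and second here. They also gave an IDR, the estimated share of peaks that do not recur between replicates among all peaks at least as reproducible. Ranks and percentiles were taken within a list, with rank 1 and a high percentile for a large −log10 p in the weaker replicate. The study states the same nominal sequencing depth for every sample, but the usable reads per library were not examined here. A peak missing from a list therefore means only that it was not detected there. The cJun lists differed in length, with 4960 peaks in DMSO and 1632 in JNKi. All data came from 1 cell line and describe chromatin, not RNA or protein of the phosphatases. The β cell label was checked by H3K4me3 over start sites, which was found at 11 of 12 β cell genes in both treatments (not at Ins1). It was found at 2 of 3 α cell genes, 1 of 4 acinar genes and 0 of 10 δ cell, duct, endothelial, immune and mesenchymal genes, again in both treatments.

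MAP kinase phosphatases remove phosphate from the threonine and the tyrosine in the activation loop of ERK, p38 and JNK and thereby switch these kinases off. Several are themselves induced when the kinases are active, which makes them a feedback arm of the pathway. cJun is a substrate of JNK and a subunit of the AP-1 transcription factors, which bind TGACTCA or TGAGTCA (AP-1 site) and, in dimers with ATF proteins, TGACGTCA (cAMP response element, CRE). H3K4me3 marks active gene starts.

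Under DMSO, a cJun summit lay within 1 kb of a start site at 6 of the 10 genes, against 6.69% of all protein-coding genes. No AP-1 site was found in 9 start-region peaks near members (interval 0 to 29.9%), and the interval includes the 13.1% of such peaks in the list. The reference sequence (GRCm38) from 100 bases before to 100 after a cJun summit is shown for 4 of these start regions, 5′ to 3′ along the gene's strand, because they cover start-region peaks found in both lists (Dusp1, Dusp8) and ones absent from the JNKi list (Dusp7, Dusp10). The DMSO summit is used except at Dusp8, where the JNKi summit is used because the same window around the DMSO summit holds no CRE. Capitals mark a CRE, and the CRE upstream of Dusp1, which lies outside its cJun peak, is given with 15 flanking bases on each side. The Dusp10 window is limited to the 142 bases outside annotated UTRs.
Dusp1 start region, DMSO summit (chr17:26508845-26509045, - strand): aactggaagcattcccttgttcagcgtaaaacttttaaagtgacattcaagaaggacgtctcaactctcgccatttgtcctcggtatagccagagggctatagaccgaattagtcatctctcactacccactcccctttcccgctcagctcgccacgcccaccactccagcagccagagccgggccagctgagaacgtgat
Dusp1 CRE (chr17:26508593-26508630, - strand): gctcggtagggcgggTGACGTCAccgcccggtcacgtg
Dusp8 start region, JNKi summit (chr7:142095298-142095498, - strand): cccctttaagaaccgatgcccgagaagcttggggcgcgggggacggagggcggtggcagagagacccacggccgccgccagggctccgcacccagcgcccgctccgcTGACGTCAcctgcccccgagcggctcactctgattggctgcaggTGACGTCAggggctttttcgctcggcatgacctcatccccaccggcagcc
Dusp7 start region, DMSO summit (chr9:106367982-106368182, + strand): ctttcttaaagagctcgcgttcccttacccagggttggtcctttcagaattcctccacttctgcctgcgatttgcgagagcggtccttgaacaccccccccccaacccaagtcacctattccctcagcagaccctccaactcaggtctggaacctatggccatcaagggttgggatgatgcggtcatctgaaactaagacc
Dusp10 start region, DMSO summit (chr1:184033999-184034140, + strand): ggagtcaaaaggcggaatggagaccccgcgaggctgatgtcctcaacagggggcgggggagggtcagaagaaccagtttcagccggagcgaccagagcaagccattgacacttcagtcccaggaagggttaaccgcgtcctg

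AP-1 sites were found in peaks away from start sites. The 7 sites below are shown with 15 flanking bases on each side and the site in capitals, because they lie in the distal peaks of Dusp4 and Dusp5 that were found under both treatments, in those of Dusp7 that were found under DMSO, and in an intronic peak of Dusp16 that was found under JNKi. That peak held 2 AP-1 sites, of which the one nearer to the summit is shown and the other, 156 bp from it, is not.
Dusp4 distal 1 (chr8:34760733-34760769, + strand): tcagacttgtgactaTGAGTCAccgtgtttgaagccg
Dusp4 distal 2 (chr8:34762149-34762185, + strand): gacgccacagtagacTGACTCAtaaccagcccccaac
Dusp5 distal 1 (chr19:53500901-53500937, + strand): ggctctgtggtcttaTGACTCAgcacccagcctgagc
Dusp5 distal 2 (chr19:53517432-53517468, + strand): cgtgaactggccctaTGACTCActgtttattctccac
Dusp7 distal 1 (chr9:106353959-106353995, + strand): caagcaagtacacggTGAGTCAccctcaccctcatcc
Dusp7 distal 2 (chr9:106361328-106361364, + strand): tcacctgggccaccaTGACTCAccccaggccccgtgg
Dusp16 intron (chr6:134734020-134734056, - strand): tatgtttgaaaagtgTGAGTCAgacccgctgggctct

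cJun peaks near the family were fewer under JNKi. The DMSO list had 24 peaks within 50 kb of a member and the JNKi list had 10. Cutting the DMSO list to the length of the JNKi list by −log10 p left 11 against 10, and keeping peaks with IDR up to 0.05 left 5 against 5. At an IDR of up to 0.01 there were 4 against 2. A peak was near 7 of 10 members in DMSO (70.0%, 95% Wilson interval 39.7 to 89.2) against 28.4% of all protein-coding genes, and near 5 of 10 in JNKi (50%, 23.7 to 76.3) against 12.2%. These intervals cover counting error only. Dusp7 and Dusp10 had peaks in the DMSO list alone, and the other 5 genes with peaks had them in both lists.

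At start sites, cJun was listed at more members in DMSO than in JNKi, and this gap narrowed with a stricter IDR. A summit within 1 kb of a member's own start site was found at 6 of 10 genes in DMSO (Dusp1, Dusp4, Dusp7, Dusp8, Dusp10 and Dusp16), against 6.69% of all genes. In JNKi it was found at 3 of 10 (Dusp1, Dusp8 and Dusp16), against 2.44%. At an IDR of up to 0.05 there were 4 members (Dusp1, Dusp7, Dusp10 and Dusp16) against 3, beside 0.792% and 0.52% of all genes. At up to 0.01 there were 3 against 2, and the share of all genes was not computed at that limit. Nearly all members carried H3K4me3 over a start site, and among such genes the counts were 6 of 9 in DMSO against 11.4% and 3 of 9 in JNKi against 4.21%. Dusp5 had distal peaks only, and Dusp2, Dusp6 and Dusp9 had no cJun peak in either list.

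**Figure D1:**
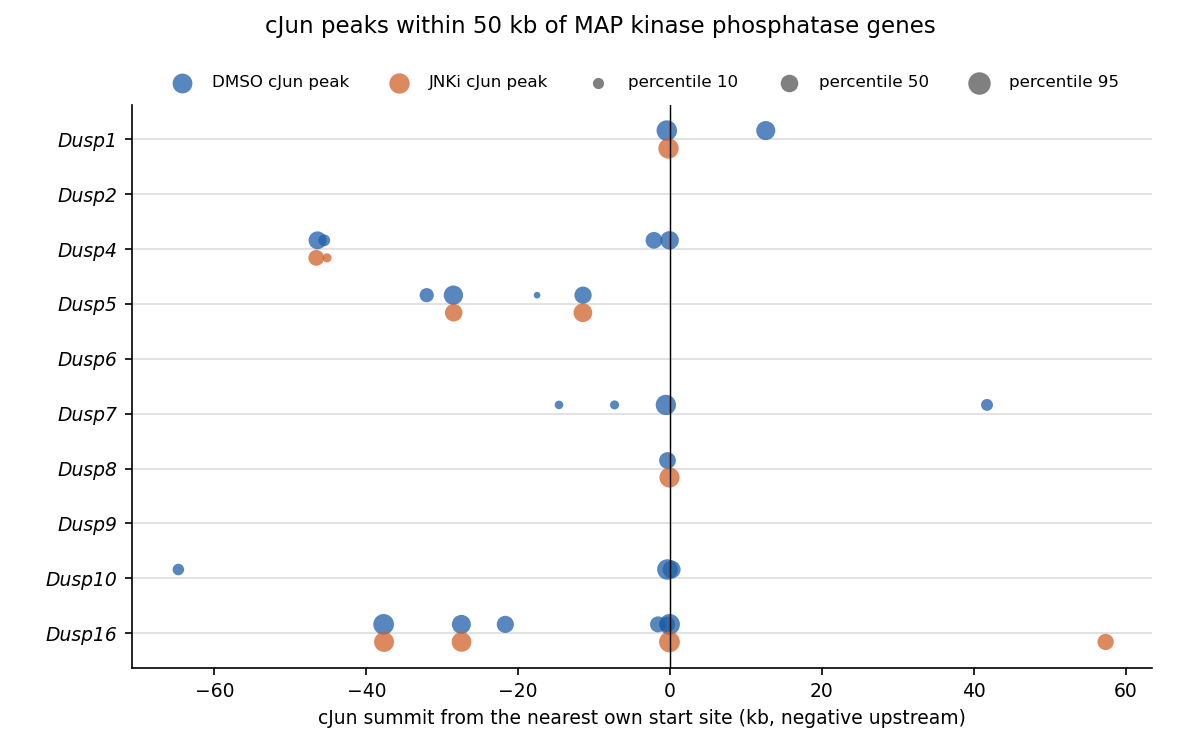
Position of each cJun summit (x axis, kb from the nearest own start site, negative upstream) for the 10 genes (rows), with DMSO peaks in blue above the line and JNKi peaks in orange below it; point area grows with the percentile of the peak in its list. Points stand at the start sites of 6 genes in DMSO and 3 in JNKi, and the rows of Dusp2, Dusp6 and Dusp9 are empty.

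Among the nuclear, inducible phosphatases, Dusp1, an immediate-early gene whose product acts on JNK, p38 and ERK, kept its start-region peak. The gene (ENSMUSG00000024190.7) is annotated at chr17:26505590-26562128 on the minus strand, a span that includes an alternative start far upstream. The DMSO peak at chr17:26508680-26509155 had a −log10 p of 21.2 in the first and 17.2 in the second replicate, an IDR of 0.00765 and rank 186, with its summit 426 bp upstream of the nearest start site. The JNKi peak at chr17:26508671-26509181 had values of 17.2 and 28.8, an IDR of 0.00386 and rank 84. Its summit lay 157 bp closer to the gene, and the CRE shown above lay 55 bp outside this peak and 64 bp outside the DMSO peak. The other Dusp1 peak, in an intron 12.6 kb inside the alternative start (9.39 and 12.2, rank 889, with an AP-1 site), was absent from the JNKi list.

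Dusp4, which encodes a nuclear phosphatase of ERK and JNK, kept distal peaks and had no start-site peak in the JNKi list. Its gene body (ENSMUSG00000031530.6) is at chr8:34807297-34819894 on the plus strand. In DMSO a peak with its summit 57 bp upstream of the start had a −log10 p of 15.3 and 8.45 (IDR 0.181, rank 1150), and another 2117 bp upstream had 8.91 and 6.72 (IDR 0.357, rank 1947). Neither was in the JNKi list. The pair of intergenic peaks about 46 kb upstream was in both lists. The outer had 7.67 and 9.11 in DMSO and 6.39 and 12.6 in JNKi, and the inner had 6.31 and 4.56 in DMSO and 4.37 and 3.81 in JNKi. None of these 4 distal values of IDR was below 0.311, so the Dusp4 distal peaks were weakly reproducible, though their JNKi summits lay 41 and 43 bp from the AP-1 sites printed above, against 126 and 405 bp in DMSO.

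Dusp5, an ERK-specific nuclear phosphatase, had 4 intergenic peaks upstream in DMSO and 2 in JNKi. Its gene body (ENSMUSG00000034765.6) is at chr19:53529109-53542431 on the plus strand. The peak 28.5 kb upstream had 9.95 and 12.6 in DMSO (rank 765) and 12.1 and 7.76 in JNKi (rank 525). The peak 11.5 kb upstream had 7.11 and 24.5 in DMSO (rank 1722) and 11.4 and 9.16 in JNKi (rank 345). The replicate values overlapped between treatments at both. The DMSO peaks 32.0 and 17.5 kb upstream were absent from the JNKi list, and the latter rested on unequal replicates (17.1 and 3.03, rank 4949). All 4 DMSO peaks overlapped an H3K4me3 peak of the same treatment, between 536 and 1972 bp wide. Dusp2, a nuclear phosphatase best known from lymphocytes (ENSMUSG00000027368.6, chr2:127336159-127338376, plus strand), had its nearest cJun peak 249 kb away in DMSO and 164 kb away in JNKi.

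Among the cytoplasmic, ERK-selective phosphatases, cJun was seen at Dusp7 and only in the DMSO list. Dusp7 (ENSMUSG00000053716.9, chr9:106368632-106375724, plus strand) had a start-region peak at chr9:106367978-106368529 with closely matched replicates of 14.5 and 14.6 (IDR 0.0334, rank 293) and its summit 550 bp upstream. It also had peaks 14.6 kb upstream (6.62 and 3.54) and 7.31 kb upstream (3.68 and 7.74), whose summits lay 34 and 21 bp from the AP-1 sites shown. These ranked 4561 and 4456 of 4960, near the foot of the list. The remaining DMSO peak lay 41.7 kb downstream of the start, nearest to Rpl29 (4.95 and 4.61, rank 3696). The nearest JNKi peak was 197 kb away. Dusp6, the ERK phosphatase induced by growth factor signalling (ENSMUSG00000019960.8, chr10:99263231-99267489, plus strand), had its nearest peak 289 kb away in DMSO and 4860 kb in JNKi, and Dusp9 (ENSMUSG00000031383.8, chrX:73639419-73643514, plus strand) 651 kb away in both.

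The phosphatases selective for JNK and p38 held the highest-ranked cJun peak of the family in each list. Dusp16, a JNK phosphatase (ENSMUSG00000030203.17, chr6:134715468-134792625, minus strand), had a peak over an exon at its start, at chr6:134792277-134793017 in DMSO with 33.3 and 28.3 (IDR 0.000615, rank 47). The JNKi peak at chr6:134792271-134793019 had 56.1 and 63.3 (IDR 0.000103, rank 7 of 1632), with summits 10 bp apart. Both JNKi values were above both DMSO values. A −log10 p depends on library depth, and the percentiles were already near the ceiling in DMSO (98.7 and 98.5) and JNKi (99.3 and 99.7).

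Dusp16 also had the most DMSO peaks of the family, 6, a number reached by 0.405% of all genes, and 4 in JNKi, reached by 0.189%. The window includes the gene body, which at Dusp16 is the longest of the family (77158 bp), and these shares were not matched for gene length. Flanking DMSO peaks 360 bp upstream of another of its start sites (9.11 and 6.04) and 1584 bp upstream (6.24 and 7.65) were absent from the JNKi list, as was a peak 21.7 kb upstream (11.1 and 7.01), which lay nearer to the start of the neighbour Crebl2 (summit at -15839 bp from that start). A peak 27.5 kb upstream was in both, with 10.4 and 9.23 in DMSO (rank 920) and 11.8 and 16.5 in JNKi (rank 193), and it too was nearer to Crebl2 (-10049 bp). The furthest upstream peak was at the Crebl2 start itself, which lay 83 bp from the DMSO summit (23.5 and 23.2, rank 79) and 29 bp from the JNKi summit (17.5 and 13.3, rank 150). An intronic peak 57.4 kb inside the gene with an AP-1 site 64 bp from its summit was the only JNKi peak near a member with no DMSO counterpart (8.88 and 6.73, IDR 0.289). By the best percentile near the gene in each of the 4 lists, the genes most like Dusp16 of 21711 compared were Gm45844 (Euclidean distance 4.19 percentile points), 2010315B03Rik (5.59) and Mid1 (6.47).

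Dusp8, which encodes a JNK- and p38-selective phosphatase prominent in neural tissue, showed the widest shift in percentile among the shared cJun peaks described below. Its gene record (ENSMUSG00000037887.11) spans chr7:142079490-142095843 on the minus strand, a little beyond the start site used here. The DMSO peak at chr7:142094753-142095994 had 6.72 and 8.65 (IDR 0.397, rank 1951) and the JNKi peak at chr7:142094721-142095766 had 20.2 and 14.9 (IDR 0.0109, rank 121). Both JNKi replicates were above both DMSO replicates. The summit moved by 224 bp, from 350 to 126 bp upstream, and the JNKi summit lay 10 and 54 bp from the pair of CREs in the sequence above, against 234 and 278 bp in DMSO.

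Dusp10, a phosphatase of JNK and p38 (ENSMUSG00000039384.8, gene record chr1:184013302-184075636, plus strand), showed the reverse. Its peak at chr1:184033027-184034146 was among the strongest of the family in DMSO, with 22.8 and 19.3 (IDR 0.00471, rank 139), yet no JNKi peak overlapped it. The summit lay 341 bp upstream of the Dusp10 start and 42 bp upstream of the divergent gene 1700056E22Rik, so the peak belongs to both start regions. A second DMSO peak 213 bp downstream of the start (7.7 and 10.6, rank 1442) and one 64.7 kb upstream (4.44 and 11.1, rank 3808) were absent from the JNKi list as well. The nearest JNKi peak was 64.8 kb from the gene body.

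The window of 50 kb set which peaks were counted. The furthest cJun peaks inside it were those of Dusp4, 46291 bp (DMSO) and 46353 bp (JNKi) from the gene body, while the furthest H3K4me3 peaks were those of Dusp6, 46952 and 46957 bp away. The nearest cJun peaks outside were a DMSO peak 57.2 kb from Dusp16 (rank 345), DMSO and JNKi peaks 58.9 and 59.1 kb from Dusp1 (ranks 137 and 64), and a DMSO peak 63.0 kb from Dusp10 (rank 4865).

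Of the 24 DMSO peaks near members, 9 overlapped a JNKi peak (37.5%, 21.2 to 57.3) against 23.6% of the list. Of the 10 JNKi peaks, 9 overlapped a DMSO peak (90%, 59.6 to 98.2) against 72.0%. At an IDR no higher than 0.05 there were 5 DMSO peaks near members, of which those at Dusp1, Dusp16 and Crebl2 had a JNKi counterpart and those at Dusp7 and Dusp10 had none. In the whole DMSO list, 68.1% of the 445 peaks at this IDR had one.

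For the 9 peaks found under both treatments, percentiles were taken among the 1150 such pairs of the lists, which allows for their unequal length. Both JNKi replicates were above both DMSO replicates at 4 of 9 peaks against 17.3% of all pairs, and below them at 0 of 9 against 17.9%. The 4 were the start-region peaks of Dusp1, Dusp8 and Dusp16 and the peak 27.5 kb upstream of Dusp16, which is nearer to Crebl2. At Dusp8 the DMSO replicates stood at percentiles 17.3 and 38.2 and the JNKi replicates at 92.0 and 82.7. The distal Dusp16 peak stood at 42.0 and 43.0 in DMSO against 74.5 and 85.5, and the Dusp1 start at 84.0 and 79.9 against 88.2 and 96.7. The median difference, JNKi minus DMSO, was 8.35 percentile points over the 9 peaks and 0.652 over all pairs. On the percentile within each whole list, JNKi was higher in both replicates at 3 peaks (Dusp8, the Dusp16 start and the peak 27.5 kb upstream of it), lower at 2 (the inner Dusp4 peak and the Crebl2 start) and overlapping at 4, the Dusp1 start among them. Of all 1150 pairs on that scale, JNKi was higher in both replicates at 55 and lower at 449. The median difference on that scale was -0.226, against -11.5 over all pairs. With 2 values against 2, a two-sided exact permutation test cannot give a p below 0.333, so no p is given for single peaks.

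**Figure D2:**
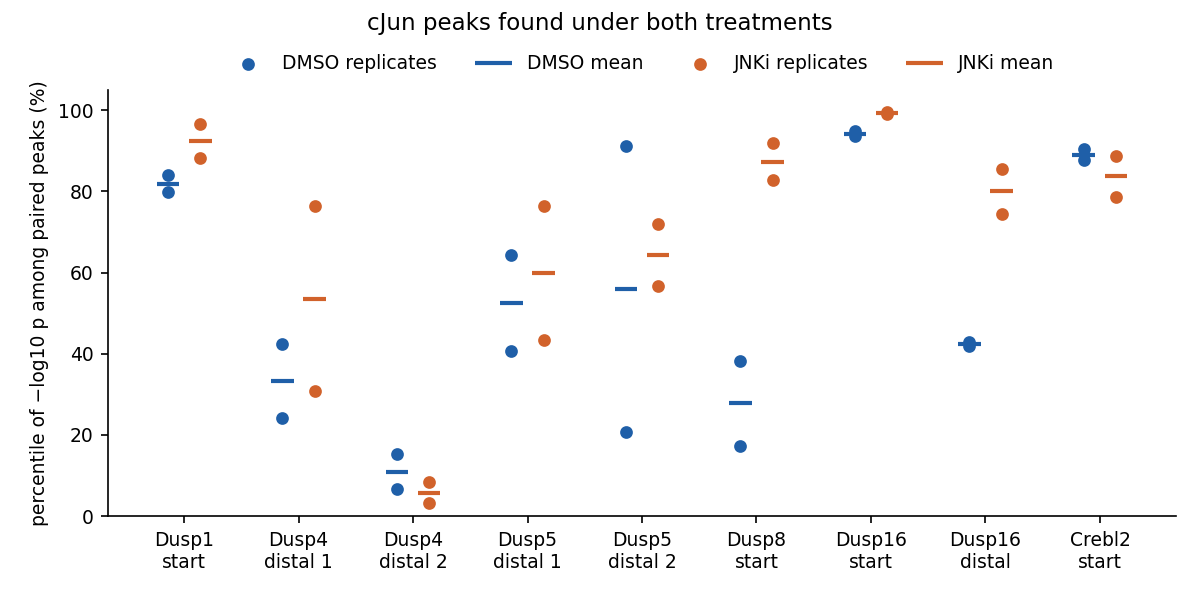
Percentile of −log10 p among the 1150 cJun peaks found under both treatments (y axis, %) for the 9 peaks near members (x axis), with points for the replicates and a bar for their mean, DMSO in blue and JNKi in orange. On this scale the replicates of the treatments do not overlap at the Dusp1, Dusp8 and Dusp16 starts and the distal Dusp16 peak, with JNKi higher, and Dusp8 differs most (DMSO 17.3 and 38.2, JNKi 92.0 and 82.7).

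AP-1 sites near members were found in distal peaks and in none at start regions. Matches to TGACTCA or TGAGTCA on either strand count as an AP-1 site and matches to TGACGTCA as a CRE, and neither string contains the other. In DMSO, 9 of the 24 peaks had a summit within 1 kb of any protein-coding start site, 8 at a member and 1 at Crebl2. An AP-1 site anywhere in the peak was found in 0 of these 9 against 13.1% of such peaks in the list, and in 9 of the other 15 (60.0%, 35.7 to 80.2) against 40.5%. In JNKi the counts were 0 of 4 against 13.6%, and 5 of 6 (83.3%, 43.6 to 97.0) against 44.3%. The 95% intervals of all 4 counts include the share of the list. Every member peak with an AP-1 site had an IDR of at least 0.0979, so none was left at an IDR of up to 0.05. A CRE was held by 1 of the 9 DMSO start-region peaks against 5.22%, and by 1 of the 4 JNKi ones against 8.54%, in each case that of Dusp8.

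Within 100 bp of the summit, an AP-1 site was found in 2 of 24 DMSO peaks against 10% and in 3 of 10 JNKi peaks against 12.1%. Among RefSeq promoters of GRCm38.p6, which run from 250 bases before to 50 after the start, 8 of 10 members were matched, all but Dusp4 and Dusp9. Dusp1 and Dusp8 held a CRE, found in 1.79% of 32851 promoters, and 0 of 8 held an AP-1 site, found in 5.2%. These matches describe the letters of the reference and do not locate the factor.

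cJun peaks overlapped H3K4me3 of the same treatment at 15 of 24 peaks in DMSO (62.5%, 42.7 to 78.8) against 53.4% of the list, and at 6 of 10 in JNKi (60.0%, 31.3 to 83.2) against 55.5%. Requiring 50% reciprocal overlap left 3 and 2 peaks, and requiring summits within 200 bp left 7 in DMSO and 4 in JNKi. The shares of the whole lists under these stricter rules were not computed, so the falls cannot be read as a trait of the members. All 8 DMSO and 3 JNKi peaks at member starts were among the overlaps of at least 1 bp. The others in DMSO were the 4 Dusp5 peaks, the Dusp1 intron, the Dusp4 peak 2117 bp upstream and the Crebl2 start.

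H3K4me3 itself was found near every member, with 28 peaks in DMSO and 30 in JNKi. A peak was near 10 of 10 members in both treatments (interval 72.2 to 100%) against 78.3% and 77.9% of all genes. It covered a start site at 9 of 10 in both (90%, 59.6 to 98.2), against 57.3% in DMSO and 56.9% in JNKi. At an IDR of up to 0.05 these counts were 4 in DMSO and 6 in JNKi, against 51.6% and 51.8% of all genes. The member without the mark at its start in the whole lists was Dusp9, whose window held a peak at the start of the neighbour Slc6a8 (164 and 154 in DMSO, 181 and 182 in JNKi). The peaks were largely shared, with 27 of 28 DMSO peaks overlapped by a JNKi peak against 93.4%, and 27 of 30 JNKi peaks by a DMSO peak against 94.3%. The unshared ones were a DMSO peak of 559 bp inside Dusp5 and JNKi peaks of 598, 560 and 431 bp near Dusp1, Dusp5 and Dusp6.

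Several members carried wide H3K4me3 domains over the start. In DMSO, 5 of the 9 marked genes had a peak of at least 5 kb over the start (55.6%, 26.7 to 81.1), against 5.27% of all marked genes. These were Dusp4 (11839 bp), Dusp5 (8330 bp), Dusp10 (7763 bp), Dusp6 (7657 bp) and Dusp7 (5149 bp). All had an IDR above 0.05 in DMSO (0.306 at Dusp4, Dusp5 and Dusp6, 0.0702 at Dusp7 and 0.0665 at Dusp10). In JNKi, 4 of 9 did (44.4%, 18.9 to 73.3) against 5.45%, since the Dusp7 peak measured 4452 bp. Of these JNKi domains, Dusp5 (IDR 0.00431) and Dusp6 (0.00382) were below an IDR of 0.05, and Dusp4 and Dusp10 had 0.282. With a limit of 4 kb the order turned, with 5 genes in DMSO and 6 in JNKi, where Dusp7 and Dusp8 (4484 bp) were counted, against 14.3% and 15% of marked genes. Dusp6 thus combined a wide domain with no cJun peak within 50 kb. Dusp16, with the most cJun peaks, had a domain under 5 kb, of 2977 bp in DMSO and 2477 bp in JNKi, against list medians of 1840 and 1910 bp. The narrowest domain of a member was that of Dusp2, with 1228 and 999 bp.

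The −log10 p of wide domains often differed between replicates, by more than 5-fold at 5 of the 9 member peaks of at least 5 kb over both lists. The other 4 were closer, such as Dusp7 in DMSO (647 and 469) and Dusp5 in JNKi (637 and 575). At Dusp4 it was 30.9 and 422 in DMSO and 527 and 23.8 in JNKi, although the replicate intervals measured 11836, 11658, 11934 and 11721 bp. At Dusp6 the DMSO replicates had 6.47 and 377, against 592 and 456 under JNKi, and at Dusp10 they had 12.1 and 13.0, against 568 and 5.99. In the whole lists, replicates differed by more than 5-fold at 16.1% of DMSO and 16.6% of JNKi peaks of at least 5 kb, against 2.37% and 2.23% of narrower ones. Extent was therefore used to compare treatments at the start sites.

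**Figure D3:**
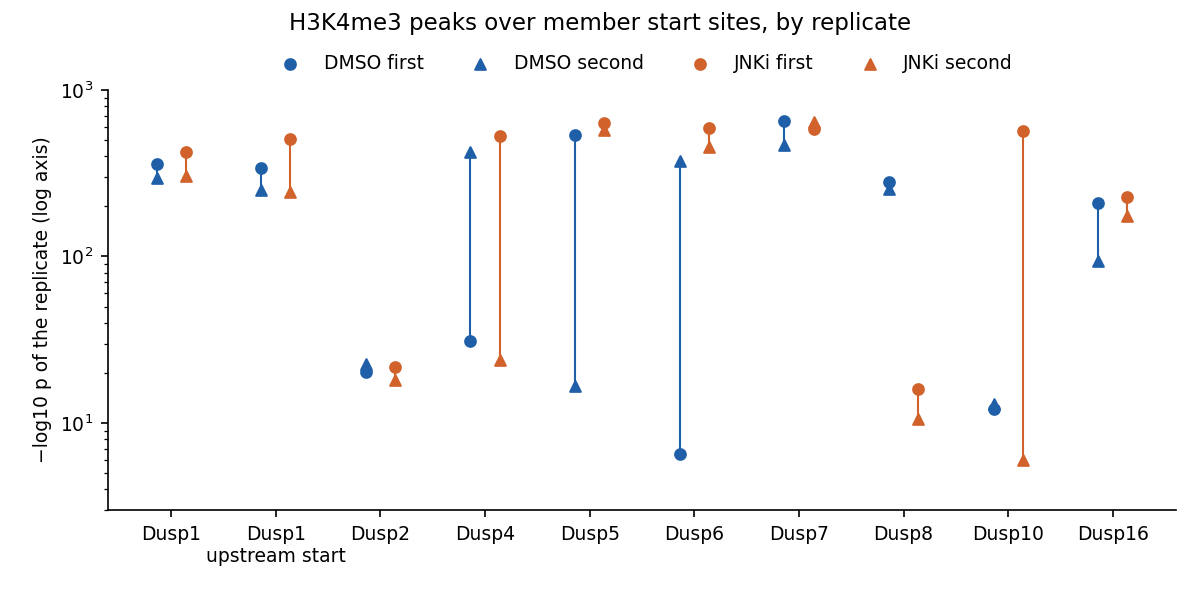
The −log10 p (y axis, log scale) of the first (circle) and second (triangle) replicate for H3K4me3 peaks over member start sites (x axis), DMSO in blue and JNKi in orange, with a line joining the replicates of a treatment. Long lines at Dusp4, Dusp5, Dusp6 and Dusp10 show replicates that differ by more than 5-fold, as at Dusp6 in DMSO (6.47 and 377).

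The bases covered by H3K4me3 peaks within 10 kb of a start site were counted in each replicate, summed over all peaks there. A gap between split peaks is not counted, so a domain called as 1 peak covers more than the same span called as several. The difference was largest at Dusp10, with 8502 and 8686 bp in DMSO and 5709 and 6071 bp in JNKi (log2 ratio of the sums -0.55). Dusp6 had 7657 and 7361 bp in DMSO and 6513 and 6254 bp in JNKi (-0.23). Dusp7 had 5149 and 4440 bp against 4350 and 4271 bp, and Dusp5 had 8735 and 8771 bp against 8461 and 8130 bp. At these 4 genes both JNKi replicates were below both DMSO replicates. The order at Dusp5 rested on a 559-bp peak found in DMSO alone (405 and 531 bp in the replicates). Counting only peaks overlapped by a peak of the other treatment, Dusp5 had 8330 and 8240 bp against 8461 and 8130 bp, which overlap, and within 5 kb the order turned (6131 and 6120 bp in DMSO, 6140 and 6160 bp in JNKi). The 2 genes with the opposite order were Dusp8, with 3069 and 3861 bp in DMSO and 4484 and 4348 bp in JNKi (0.35), and Dusp1, with 7844 and 7522 bp against 9083 and 8296 bp (0.18). The Dusp1 sum pools its proximal start region and the alternative start far upstream, and it includes a 598-bp peak found in JNKi alone. Without unshared peaks the JNKi values were 8600 and 7740 bp, which overlap the DMSO values, and the order was also lost within 5 kb and within 20 kb of the start sites. The order at Dusp6, Dusp7, Dusp8 and Dusp10 was the same in each of these counts. At Dusp8 the outer bounds were nearly the same in both treatments (142091757 to 142096236 in DMSO, called as 2 peaks, and 142091757 to 142096240 in JNKi, called as 1). The uncounted gap between the 2 DMSO peaks (after 142092869 and before 142093313) contributes to the difference at Dusp8. Each of these counts kept that split, so they cannot show whether the Dusp8 order depends on it.

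The replicates overlapped between treatments at Dusp2, Dusp4 and Dusp16. At Dusp4 the 4 values lay between 11658 and 11934 bp. Over all 12277 genes marked in both lists, both JNKi replicates were lower at 15% and higher at 21.7%, against 4 and 2 of the 9 members. The median log2 ratio was -0.08 for the members and 0.01 for all genes. With unshared peaks left out, 3 members were lower and 1 was higher. Of these, Dusp7 and Dusp10 had start-region cJun peaks that were absent from the JNKi list, Dusp6 had no cJun peak in either list, and Dusp8, the higher one, had a cJun peak that stood higher in JNKi. Dusp4 and Dusp16 had overlapping replicates, with the start-site cJun peak absent from the JNKi list at Dusp4 and higher there at Dusp16. Dusp1 also had overlapping replicates with unshared peaks left out, and its start-region cJun peak stood higher in JNKi among the paired peaks. A link between cJun and H3K4me3 extent was not tested.

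**Figure D4:**
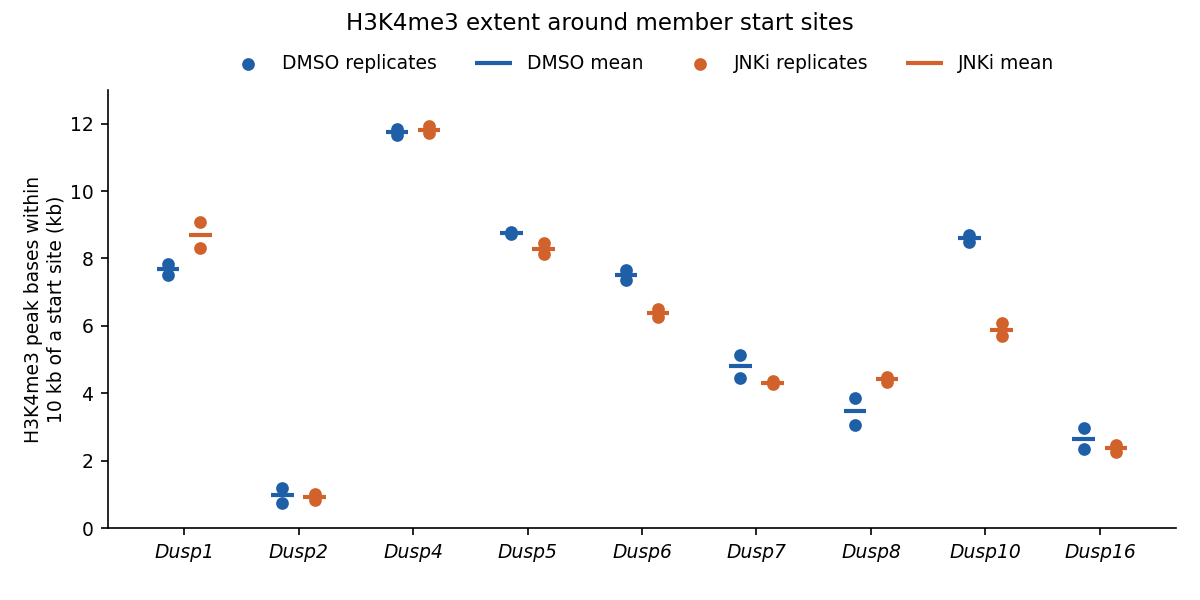
Bases under H3K4me3 peaks within 10 kb of a start site (y axis, kb) for the 9 marked members (x axis), with points for the replicates and a bar for their mean, DMSO in blue and JNKi in orange. Dusp10 shows the largest difference (8502 and 8686 bp in DMSO, 5709 and 6071 bp in JNKi), Dusp8 lies higher in JNKi, and Dusp4 stays between 11658 and 11934 bp.

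Peak by peak, 26 H3K4me3 peaks near members could be paired between treatments, out of 17850 pairs. Both JNKi replicates were narrower at 8 of 26 against 14.7% of all pairs, and wider at 4 of 26 against 20.6%, with a median log2 width ratio of -0.02 against 0.01. That median ranged from -0.10 to 0.07 when each replicate column was left out in turn. The narrower peaks include the Dusp5 start, whose DMSO peak of 8330 bp corresponded to JNKi peaks of 6761 and 1763 bp that together reached past its end. By percentile, JNKi was lower in both replicates at 5 of 26 against 22.8% and higher at 2 of 26 against 13.7%. The median difference was -1.37 percentile points against -0.812 over all pairs. The member median turned to 1.3 without the second JNKi replicate and to 0.707 with a window of 20 kb, so its sign was not stable. At Dusp8, DMSO peaks of 1113 bp (7.94 and 8.22) and 2924 bp (279 and 253) corresponded to 1 JNKi peak of 4484 bp with 15.9 and 10.5, so its percentile compares intervals of different extent.

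Other regulators of the pathway were examined as lists. A cJun peak was near 3 of 13 MAP kinase genes in DMSO and 1 in JNKi, and near 4 of 7 MAP kinase kinase genes in DMSO and 2 in JNKi, beside the shares of 28.4% and 12.2% over all genes. Start-site peaks were listed in DMSO for 1 of the 13 (Mapk10, which encodes the JNK isoform prominent in brain) and 1 of the 7 (Map2k7, an activator of JNK), against 6.69% of all genes, and in JNKi for 0 of the 13 and 1 of the 7 (Map2k2, an activator of ERK), against 2.44%. With 1 gene per list, no difference between treatments can be read from these. Of 16 atypical dual-specificity phosphatase genes, which lack the kinase-binding domain of the family above, 8 had a cJun peak nearby in DMSO and 3 in JNKi, beside the same shares. Those with a start-site peak in DMSO were Dusp3, Dusp18 and Dusp23 (3 of 16, against 6.69% of all genes), and none had one in JNKi (against 2.44%). The atypical genes carried H3K4me3 over the start at 12 of 16 in both treatments, against 57.3% and 56.9% of all genes. A domain of at least 5 kb was found at 0 of these 12, at 1 of 13 MAP kinase genes and at 1 of 6 Sprouty and Spred genes in both treatments, beside 5.27% of all marked genes in DMSO and 5.45% in JNKi. Of the β cell genes, 8 of 11 marked ones had such a domain in DMSO and 9 of 11 in JNKi.

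Of 3 tyrosine phosphatase genes that act on MAP kinases, Ptpn5 had a cJun peak nearby in DMSO (1 of 3, against 28.4% of all genes) and none did in JNKi (against 12.2%). Of 6 genes for the Sprouty and Spred inhibitors of ERK signalling, Spry2 and Spred2 had a start-site peak in DMSO (against 6.69% of all genes) and none had a peak nearby in JNKi (against 12.2%). The list as drawn up held 7, and Spry3 was not matched.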

How the data were processed

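CUT&RUN libraries of Min6 cells were grouped by their labels. The authors trimmed reads with Trimmomatic, aligned them to GRCm38 with Bowtie2 2.4.2, filtered with SAMtools 1.16, called narrow peaks against IgG with MACS2 2.2.7.1 and combined replicates by IDR. The deposited lists give a −log10 p per replicate, and the deposited score is a scaled IDR. The merged −log10 p was the lower replicate in 100.0% of peaks. The lowest value of 3.01 corresponds to a p cut-off of 0.001, whereas the study's methods name default calling, so weak peaks are included. Reads, coverage and depth were not analysed here.

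Members, gene lists and measures were chosen with earlier results of these data known. All 10 members and all their cJun peaks are named, with sequences by a rule on overlap, IDR or motif, outside UTRs. Gene bodies and 41506 protein-coding start sites came from GENCODE vM21 (basic set), and sequences from GRCm38.p6. Overlap was at least 1 bp, and peaks were paired by reciprocal best overlap. With 1 merged list per group the counts have no replicates, and per-replicate values were compared 2 against 2 by whether they overlap, without a model. Overlap, pairing, gene-window and motif steps were tested on simulated data, and the assignment of peaks to start sites, exons and introns was not. Python 3.11.15, pandas 2.3.3, numpy 2.4.6, SciPy 1.17.1 and pysam 0.24.0 were used. Alternatives changed the gene window, IDR, list length, overlap, motif window, start-site distance, width limit and replicates.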

Additional observations from a re-analysis of the deposited data

How the results depend on the processing

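Of 154 values under alternatives, 103 stayed within 1.5-fold of the reported count or within the replicate SD of the reported median, and 51 moved further. With a 20 kb window, cJun peaks near members numbered 15 in DMSO and 5 in JNKi, of which 4 and 4 overlapped the other treatment. With 100 kb, H3K4me3 peaks numbered 45 and 50, with 44 and 44 overlapped. At an IDR of at most 0.05, cJun peaks numbered 5 and 5 (3 and 3 overlapped) at 4 and 3 members, with a start-site summit at 4 and 3, and H3K4me3 peaks 12 and 14 (11 and 11 overlapped), with 4 and 6 members marked at the start. At 0.01, cJun peaks numbered 4 and 2 (2 and 2 overlapped) at 3 and 2 members, with a start-site summit at 3 and 2, and H3K4me3 peaks 11 and 12 (8 and 8 overlapped), with 4 and 5 members marked at the start. With lists of equal length, DMSO had 11 cJun peaks near members and JNKi 10, and 5 and 3 members had a start-site summit. Shares over all genes were not computed at an IDR of 0.01 or for lists of equal length, so the member counts there have no background. AP-1 counts rose to 9 and 5 when the whole peak was searched. Leaving out each replicate column in turn gave a median percentile difference from -2.08 to 1.3 (1.3 without the second JNKi column) and a median log2 width ratio from -0.10 to 0.07, and the medians also turned sign elsewhere (percentile 0.707 with 20 kb; width 0.01 with 100 kb or 50% reciprocal overlap, 0.10 and 0.06 at an IDR of at most 0.05 and 0.01), so neither has a settled sign. With 5 kb or 20 kb around start sites in place of 10 kb, 3 and 3 members had fewer H3K4me3 bases in both JNKi replicates and 2 and 1 had more, and with unshared peaks left out 3 had fewer and 1 had more. The members whose order changed were Dusp1 and Dusp5 in each case. Distances of 500 bp or 2 kb, a width limit of 4 kb (5 and 6 members), the higher replicate alone, percentiles among paired peaks, start-site summits at a stricter IDR or with lists of equal length, and covered bases were chosen after seeing the data. No paired analysis was possible because the replicate columns carry no replicate numbers. The usable depth of each library was not examined, so a peak absent from the JNKi list was not detected there rather than shown to be lost.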
